A study of Mus musculus with 16 samples.

Results

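The clustered protocadherin genes lie in 3 consecutive arrays on mouse chromosome 18, named alpha (Pcdha), beta (Pcdhb) and gamma (Pcdhg). The regions described are all MACS peaks of H3K9me3, and all regions of grouped MACS peaks of H3K9me2, that overlap the stretch of chromosome 18 from 36.9 to 38 Mb (GRCm38). This window held 145 of 212313 H3K9me3 peaks and 33 of 47065 H3K9me2 regions. The data are ChIP-seq of histone H3 trimethylated (H3K9me3) or dimethylated (H3K9me2) at lysine 9, from whole crypt isolates of mouse small intestine in a C57BL/6 background. The genotypes were wild type (WT) and intestinal knockout (KO), the latter lacking the ATP-dependent nucleosome remodeler Smarcad1 in gut epithelium. Each mark had 3 WT libraries, 3 KO libraries and 1 input library (sonicated chromatin, no antibody) per genotype, 16 libraries in all. KO animals carried loxP-flanked Smarcad1 exons and a Cre transgene under the Villin promoter, which is active in epithelial cells, so other cells in the isolates keep the gene. Per the study's methods, the floxed allele came from a single targeted line, CE6. Ages are not given in the sources used here. The study calls the ChIP-seq libraries biological replicates, without saying whether each came from a separate animal, and p-values measure the spread between these libraries.

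Clustered protocadherins are cadherin-like adhesion molecules of the cell surface, known above all from neurons. Each variable exon encodes the extracellular part of an isoform and has its own promoter. In the alpha and gamma clusters it is spliced to constant exons at the end of the cluster, while beta genes consist of a variable exon only. In neurons the alternate promoters are chosen stochastically with the help of CTCF and cohesin, which gives single neurons a combination of isoforms used for self-recognition. The C-type isoforms at the end of the alpha and gamma clusters are not chosen in this way. H3K9me3 and H3K9me2 are marks of repressed chromatin.

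H3K9me3 values are the deposited log2 reads per peak after the 6 ChIP libraries were given matching distributions, and H3K9me2 values are reads summed per region. By reads recovered from the log2 values, or summed for H3K9me2, ChIP libraries held 7035841 to 11839140 reads in H3K9me3 peaks and 18986927 to 39080740 in H3K9me2 regions. "ChIP over input" is the log2 ratio of the share of reads (plus 1 read) that a peak took in a ChIP library to its share in the input of the same mark and genotype. Shares were taken of the reads in all peaks, so 0 on this scale is the enrichment of the average peak and not an absence of the mark. Its SD over 3 libraries does not hold the error of the input, which was 1 library per genotype. The Vil1 peak (chr1:74401801-74415300), over the gene whose promoter drives the transgene, held 46 to 50 reads in the 3 WT libraries of H3K9me3 and 3102 to 4778 in the 3 KO libraries. In the inputs it held 296 reads in WT and 3288 in KO, so the 8 libraries of the H3K9me3 set match their genotype labels at this transgene. Vil1 held no H3K9me2 region, and the H3K9me2 libraries were not checked in this way. Among H3K9me2 libraries, WT1 stood apart from WT2 and WT3, with a chi-square per degree of freedom of 3.71 and 3.65 over all regions, against 1.36 between WT2 and WT3. KO3 stood apart from KO1 and KO2, at 3.90 and 2.52 against 1.37.

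H3K9me3 was unevenly spread over the window. Peaks, called once over WT and KO libraries together, covered 36.3% of the alpha cluster, 68.5% of the beta cluster and 61.2% of the gamma cluster, against 15.2% of the genome. None lay in the 158 kb from the end of the gamma cluster to the end of the window, which holds Diaph1, Hdac3, Rell2, Fchsd1 and Arap3. Coverage and strength did not go together. Summed over a cluster, WT ChIP over input was 0.11 ± 0.07 (SD, n = 3) in alpha, -0.01 ± 0.02 in beta and 0.64 ± 0.12 in gamma. In KO the same sums were 0.21 ± 0.04, -0.06 ± 0.01 and 0.57 ± 0.09. The beta cluster, with 56 peaks, was covered most and enriched least, and by summed reads the gamma cluster, with 13 peaks, was enriched most. By the median over single peaks, which gives small and broad peaks the same weight, gamma did not stand above alpha. These medians were 0.10 ± 0.06 in alpha, -0.03 ± 0.03 in beta and 0.15 ± 0.18 in gamma for WT, and 0.18 ± 0.08, -0.06 ± 0.04 and 0.15 ± 0.09 for KO. Across all H3K9me3 peaks the median WT value was -0.08.

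Only 2 of the 145 peaks reached a WT mean of at least 1, which is at least 2-fold the average peak's ChIP over input, against 3.19% of all H3K9me3 peaks. Among peaks of 5 kb or more, these were 7.14% of the 28 in the window and 3.15% of the 11779 in the genome. Both were neighbours near the end of the gamma A and B array. Reads of 8 peaks of the window were extrapolated in at least 1 library, among them this pair and the other 2 broad gamma peaks, so their ChIP over input and the gamma sum rest in part on extrapolated reads. The peak over Pcdhgb6, Pcdhga10, Pcdhgb7 and Pcdhga11 (chr18:37741051-37760400) had ChIP over input of 1.33, 0.98 and 1.10 in WT1 to WT3 and 0.95, 1.24 and 1.05 in KO1 to KO3. The peak over Pcdhgb8 and Pcdhga12 (chr18:37760551-37769850) had 1.54, 1.25 and 1.29 in WT and 0.92, 1.13 and 1.08 in KO. WT values exceeded KO values at this peak, but its input also differed, with 167 reads in WT and 200 in KO. Of all H3K9me3 peaks, 1.34% had a higher WT mean.

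**Figure D1:**
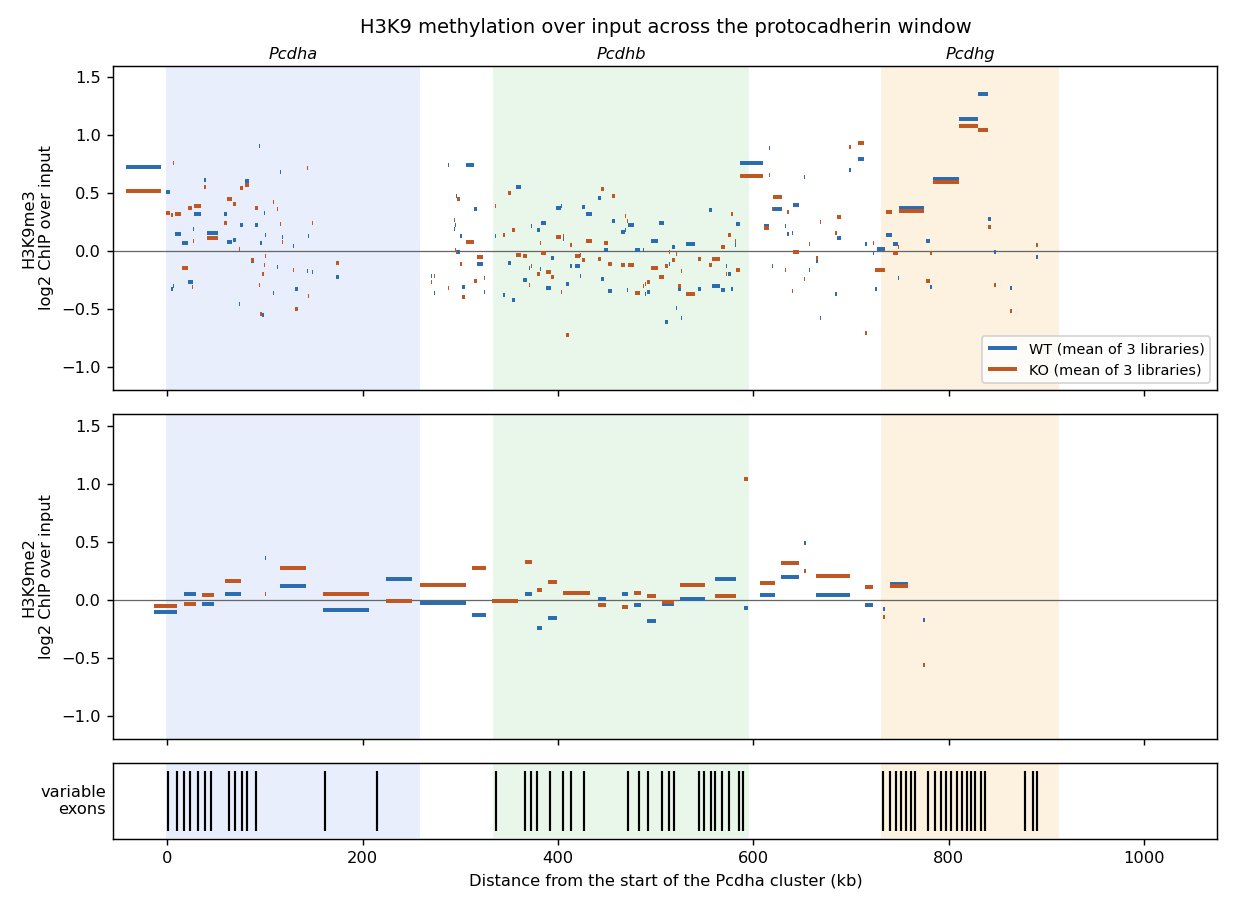
Mean log2 ChIP over input of each H3K9me3 peak (top) and H3K9me2 region (middle), drawn at its width against the distance in kb from the start of the Pcdha cluster, for 3 WT (blue) and 3 KO (orange) libraries, with the variable exons as ticks. Along the Pcdhg array H3K9me3 does not rise at every step. It is highest in WT at Pcdhgb8 and Pcdhga12, at 1.36, and falls before the C-type exons. Most H3K9me2 regions lie near 0.

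Outside the gamma cluster, broad peaks of high enrichment lay at the edges of the alpha and beta clusters or between clusters. The broadest peak of the window, 35700 bp wide, ended 6 kb before Pcdha1 (chr18:36888451-36924150, assigned in the deposited table to the pseudogene Gm6756). It had WT ChIP over input of 0.73 ± 0.09, and 0.0170% of all H3K9me3 peaks were wider. A 24000 bp peak spanned Pcdhb22 and ran on beyond the beta cluster (chr18:37516501-37540500), with WT libraries at 0.77 ± 0.07 and KO libraries at 0.65 ± 0.05. Between the beta and gamma clusters, the peak over Slc25a2, a mitochondrial carrier, and Taf7, a subunit of the general transcription factor TFIID (chr18:37637251-37643250), was at 0.80 ± 0.11 for WT and 0.93 ± 0.21 for KO. The same interval held a 1050 bp peak (chr18:37546051-37547100) at 0.89 in WT, which rested on 11 reads in each input. Between alpha and beta, the peak at chr18:37235551-37244250 was at 0.75 in WT and 0.08 in KO, with 147 input reads in WT and 199 in KO. Its log2 fold change between the ChIP libraries (KO over WT) was -0.15 (95% interval -0.33 to 0.03, limma adjusted p = 0.606).

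Inside the alpha cluster the strongest values came from small peaks. The 900 bp peak at chr18:37023901-37024800 was at 0.90 in WT and -0.29 in KO, on 11 and 20 input reads, so the inputs alone differ 1.90-fold (95% interval 0.868 to 4.39, exact binomial, counting error only). The peak at chr18:37045501-37046550 was at 0.68 in WT and 0.23 in KO on 14 and 19 input reads. The peak over Pcdha6 (chr18:36967351-36970350) rested on 47 and 50 input reads and was at 0.62 ± 0.16 in WT and 0.55 in KO. The widest alpha peak, over Pcdha7 (chr18:36970951-36981750), was at 0.16 in WT and 0.12 in KO. In the beta cluster the highest WT value was 0.56 at the peak between Pcdhb1 and Pcdhb2 (chr18:37287301-37292400), followed by 0.51 at a 300 bp peak on Pcdhb9 (chr18:37400851-37401150) that rested on 7 input reads, and 0.46 at chr18:37371151-37373850. The widest beta peak (chr18:37461301-37470300) was at 0.06 in WT.

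Most variable exons lay within H3K9me3 peaks, although 98 of the 145 peaks held no variable exon. A variable exon was taken as the longest coding segment of each annotated gene (GENCODE M21, whose annotation lists 2 alpha genes under the name Pcdha11). All 12 alpha exons, all 12 gamma A exons and all 7 gamma B exons lay wholly within H3K9me3 peaks, and 21 of 22 beta exons were overlapped, Pcdhb16 being the exception. Of the exon bases, 100% were covered in alpha, gamma A and gamma B and 86.7% in beta. Of the 5 C-type exons, 1 was overlapped, that of Pcdhgc5, and 13.4% of their bases were covered. Pcdhac1, Pcdhac2, Pcdhgc3 and Pcdhgc4 had no H3K9me3 peak. No constant exon of the alpha or gamma cluster overlapped an H3K9me3 peak.

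The isoform groups also differed in level. At the peak on each exon, WT ChIP over input had a median of 0.19 over 12 alpha exons (-0.27 to 0.62), 0.04 over 21 beta exons (-0.35 to 0.77), 0.50 over 12 gamma A exons (0.02 to 1.36) and 0.63 over 7 gamma B exons (0.37 to 1.36). The medians in KO were 0.38, -0.07, 0.47 and 0.60. Gamma exons share peaks, 4 of them for the 7 gamma B exons, so these are not independent values. Along the gamma array the WT level was 0.02 at Pcdhga1, 0.37 at the peak from Pcdhgb1 to Pcdhga5 (chr18:37679701-37704450), 0.63 at the peak from Pcdhga7 to Pcdhga9 (chr18:37714501-37740900), then 1.14 and 1.36 at the final pair of broad peaks. Pcdhga2, Pcdhga3 and Pcdhga6, on smaller peaks, were at 0.14, 0.07 and 0.09. In KO the former peaks were at -0.16, 0.34, 0.60, 1.08 and 1.04, and the smaller ones at 0.34, -0.01 and -0.26. The level therefore did not rise at every step, but in both genotypes the final pair of broad peaks held the highest values of the array.

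**Figure D2:**
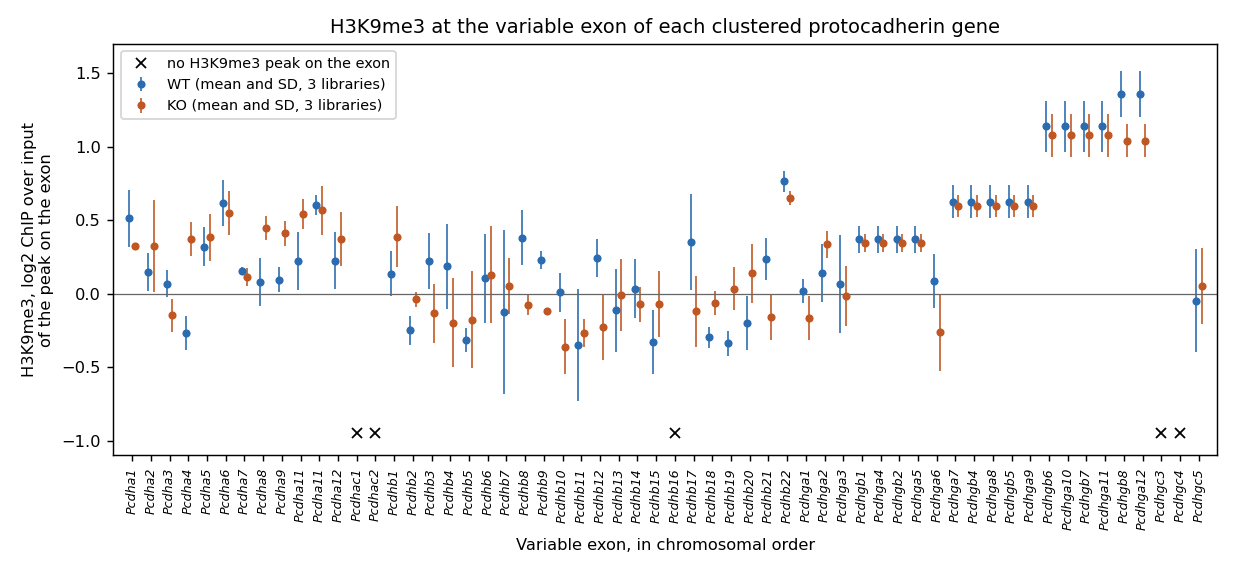
Log2 H3K9me3 ChIP over input of the peak with most bases on each variable exon, in chromosomal order, as mean and SD of 3 WT (blue) and 3 KO (orange) libraries; exons within 1 peak share its value. Crosses mark the 5 exons without an H3K9me3 peak, 4 of them C-type, and the highest value is 1.36, in WT at Pcdhgb8 and Pcdhga12.

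Variable exons were rich in CpG. Their median was 47.7 CpG per kb in alpha, 27.9 in beta, 32.2 in gamma A, 46.0 in gamma B and 33.9 in the C-type exons, so the C-type exons, 4 of 5 without H3K9me3, lay within the range of the other groups. The 47 H3K9me3 peaks that held a variable exon had a median width of 3900 bp and 23.3 CpG per kb, and the 98 others 1500 bp and 5.95 CpG per kb. Variable exons resemble each other, and reads of mapping quality under 20 were removed before counting. Of the 100-base words of a variable exon, up to 13.6% recurred within the window and 100 kb around it in alpha, 3.79% in beta, 1.59% in gamma A, 11.3% in gamma B and 0% in C-type exons. The effect of this on the values was not tested.

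Few H3K9me3 peaks of the window differed between KO and WT. At an adjusted p under 0.05 (limma, Benjamini-Hochberg over all peaks, two-sided), 1 of 145 peaks was lower in KO, against 2.46% of all peaks, and 1 was higher, against 0.252%. At an unadjusted p under 0.05, 8 were lower and 6 higher, against 6.75% and 4.07% of all peaks. All KO values lay below all WT values in 17 peaks and above them in 11, against 8.21% and 7.3%. The log2 fold change (KO over WT) over the 145 peaks ran from -0.77 to 0.91 with a median of 0.01, against 0.03 for all peaks. By cluster the medians were 0.02 in alpha (21 of 37 peaks above 0), -0.03 in beta (23 of 56), and 0.13 in gamma (11 of 13). Without KO1 the alpha median was -0.01 and the beta median 0.01, each of the opposite sign. The gamma median was 0.04 without WT3 and 0.06 with edgeR on recovered reads. In the alpha cluster 0 peaks passed, with 1 lower and 1 higher at the unadjusted level, and edgeR and DESeq2 on recovered reads also called 0. At the unadjusted level the beta cluster had 4 lower and 0 higher of 56 peaks, and the gamma cluster 0 lower and 3 higher of 13. KO values lay wholly below WT values in 3 alpha, 7 beta and 0 gamma peaks, and wholly above in 1, 4 and 4.

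**Figure D3:**
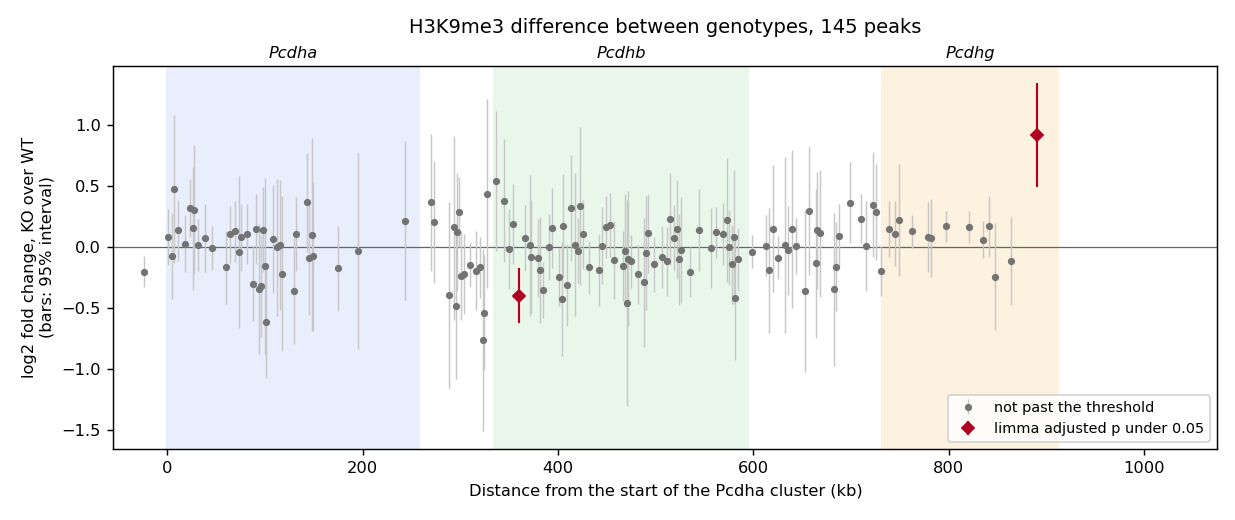
Log2 fold change of H3K9me3 (KO over WT) with its 95% interval (limma) for each of the 145 peaks, against the distance in kb from the start of the Pcdha cluster. The 2 peaks past the threshold (red diamonds) are 1 in the Pcdhb cluster at -0.40 and 1 at Pcdhgc5 at 0.91, and most other intervals span 0.

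The peak that fell lay in the beta cluster between Pcdhb1 and Pcdhb2 (chr18:37287301-37292400), and held no variable exon. Its values were 7.28, 7.58 and 7.35 in WT1 to WT3 and 6.99, 7.09 and 6.92 in KO1 to KO3 (log2 reads). Every KO value lay below every WT value. The log2 fold change was -0.40 (95% interval -0.63 to -0.18, limma adjusted p = 0.0332). The WT libraries stood 0.56 ± 0.16 over input and the KO libraries -0.04 ± 0.08 (log2, n = 3), on 100 and 110 input reads. On recovered reads the adjusted p was 0.0187 with edgeR and 0.262 with DESeq2. It passed when WT1 or KO2 was left out and not when WT2, WT3, KO1 or KO3 was, with adjusted p of 0.0329 to 0.290. A peak at chr18:37312801-37317900, before Pcdhb5, was chosen after its values were seen. It had 7.22, 7.57 and 7.29 in WT and 7.09, 6.96 and 6.97 in KO, at a limma adjusted p of 0.0890. On recovered reads edgeR called it lower (adjusted p = 0.0430) and DESeq2 did not (0.436).

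The peak that rose lay on the variable exon of the C-type gene Pcdhgc5 (chr18:37819801-37821450), and was also the last H3K9me3 peak of the window. It held few reads, 40, 21 and 28 in WT1 to WT3 and 29, 71 and 52 in KO1 to KO3. On the matched log2 scale these were 5.17, 4.45 and 4.61 in WT and 5.36, 5.92 and 5.70 in KO libraries. The groups did not overlap, though WT1 and KO1 lay 0.19 apart, and the log2 fold change was 0.91 (95% interval 0.49 to 1.34, limma adjusted p = 0.00542). The inputs moved the same way, with 24 reads in WT and 41 in KO, 1.79-fold higher in KO (95% interval 1.05 to 3.09, exact binomial, counting error only). Relative to input, WT libraries averaged -0.05 ± 0.35 and KO libraries 0.05 ± 0.26, a difference of 0.10 on the log2 scale. The part of the input in the ChIP difference was not tested. The adjusted p was 0.00143 with edgeR and 0.0910 with DESeq2, and the peak passed no longer without WT2 or without KO2 (0.00187 to 0.0925 over the 6 libraries left out).

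The broad gamma peaks differed little between genotypes. At the peak from Pcdhga7 to Pcdhga9 the values were 9.87, 9.86 and 9.77 in WT and 9.98, 9.99 and 10.02 in KO, a log2 fold change of 0.17 (95% interval 0.04 to 0.30, limma adjusted p = 0.211). At the peak from Pcdhgb6 to Pcdhga11 they were 10.00, 9.83 and 9.89 in WT and 10.01, 10.17 and 10.03 in KO, a log2 fold change of 0.16 (0.03 to 0.29, limma adjusted p = 0.264). Neither peak passed the threshold, although KO lay above WT in both. On recovered reads the log2 fold changes were smaller, 0.06 and 0.05 with edgeR and 0.06 and 0.05 with DESeq2. At the peak from Pcdhgb8 to Pcdhga12 the groups overlapped and the log2 fold change was 0.06 (-0.10 to 0.21, limma adjusted p = 0.876), and -0.01 with edgeR or DESeq2 on recovered reads. Input reads at the pair of peaks from Pcdhga7 to Pcdhga11 were 1.08-fold and 1.10-fold as high in KO as in WT, and ChIP over input there was no higher in KO, at 0.60 against 0.63 and 1.08 against 1.14. The 95% intervals at these 3 peaks leave out differences beyond 0.30 on the log2 scale.

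**Figure D4:**
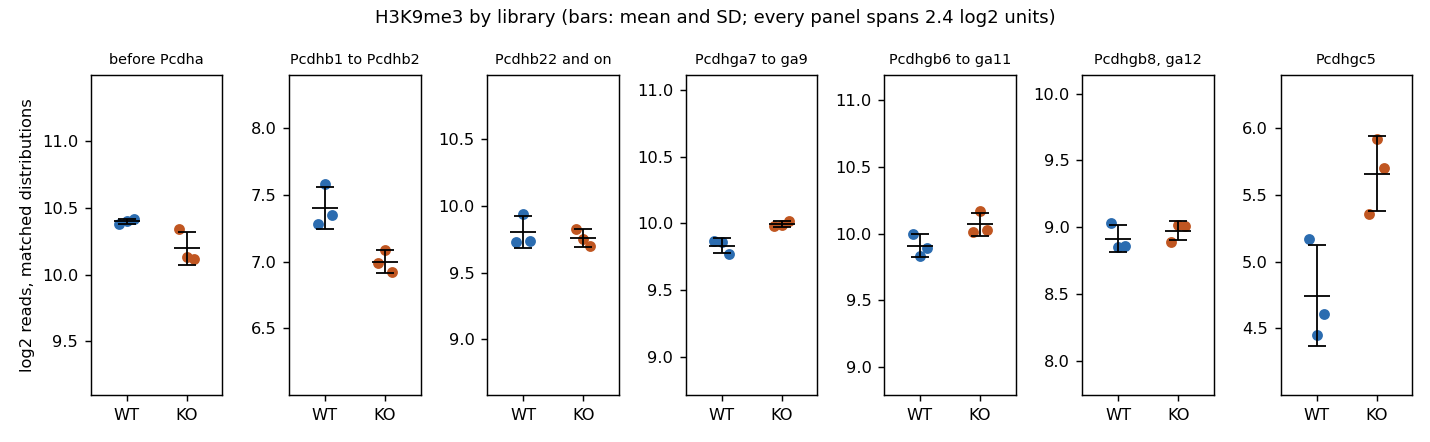
Deposited log2 reads (matched distributions) in each of 3 WT and 3 KO libraries at 7 H3K9me3 peaks, with mean and SD as bars and 2.4 log2 units in every panel. KO points lie below WT points before Pcdha and at the peak between Pcdhb1 and Pcdhb2, above them at Pcdhgc5, and within 0.3 of them on average at the broad Pcdhb22 and Pcdhg peaks.

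The broad peak before Pcdha1 was near the threshold. It had 10.38, 10.40 and 10.42 in WT1 to WT3 and 10.34, 10.13 and 10.12 in KO1 to KO3. All KO values lay below the WT values, with KO1 within 0.04 of WT1. The log2 fold change was -0.21 (95% interval -0.33 to -0.08, limma adjusted p = 0.0671). On recovered reads, which are extrapolated at this height, it was -0.33 with both edgeR (adjusted p = 0.0281) and DESeq2 (adjusted p = 0.00942). Without KO1 the limma adjusted p was 0.00721, and without any other library the peak did not pass, up to 0.355. Relative to input, WT stood at 0.73 ± 0.09 and KO at 0.52 ± 0.07. Apart from the called beta peak, none of the peaks named for their WT level or width passed. Among them, Slc25a2 and Taf7 were at a log2 fold change of 0.23 (0.03 to 0.43, limma adjusted p = 0.337), Pcdhb22 at -0.04 (adjusted p = 0.902), Pcdha6 at 0.07 (adjusted p = 0.931) and Pcdha7 at -0.01 (adjusted p = 0.988).

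At the variable exons, 11 of 12 alpha, 11 of 21 beta, 11 of 12 gamma A and 7 of 7 gamma B exons had a log2 fold change above 0, and the 1 C-type exon with a peak was the called peak at Pcdhgc5. Of all H3K9me3 peaks, 54.7% had one. The gamma exons share peaks, so the gamma A counts rest on 8 peaks and the gamma B counts on 4 of these. These counts are on the matched log2 scale. On recovered reads the peak over Pcdhgb8 and Pcdhga12 was at -0.013 with edgeR and DESeq2. Relative to input the counts differed, with KO above WT at 7 of 12 alpha, 11 of 21 beta, 1 of 12 gamma A and 0 of 7 gamma B exons. The median log2 fold changes were 0.09 in alpha, 0.07 in beta, 0.14 in gamma A and 0.16 in gamma B, beside 0.03 for all peaks of the genome. The largest alpha value was 0.32 at Pcdha4 (chr18:36951151-36955650), where WT had 6.92, 6.83 and 6.69 and KO 7.26, 7.14 and 6.99 (limma adjusted p = 0.207). Of the 47 peaks with a variable exon 31 had a fold above 0, and of the 98 without 44. Apart from Pcdhgc5, no peak on a variable exon passed the test.

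H3K9me2 lay over the alpha and beta clusters and ended early in the gamma cluster. Regions covered 59.6% of the alpha cluster, 64.4% of the beta cluster and 12.2% of the gamma cluster, against 28.3% of the genome. The last one ended at chr18:37705800, before the broad H3K9me3 peaks from Pcdhga7 onward. They overlapped 9 of 12 alpha, 20 of 22 beta, 4 of 12 gamma A, 1 of 7 gamma B and 1 of 5 C-type variable exons, the last being Pcdhac1. All 33 H3K9me2 regions overlapped an H3K9me3 peak, and 113 of 145 H3K9me3 peaks overlapped an H3K9me2 region. Any shared base counted, and the share over all regions and peaks is not given here. The regions had a median width of 12150 bp, against 7050 bp for all regions, and H3K9me3 peaks covered 46.3% of the window. A shared call does not show both marks on the same nucleosomes or in the same cells.

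H3K9me2 ChIP over input was close to 0 in the cluster sums, and single small regions departed from it. Summed over a cluster it was 0.04 ± 0.02 (SD, n = 3) in WT and 0.08 ± 0.04 in KO in alpha, 0.00 ± 0.06 and 0.07 ± 0.06 in beta, and 0.07 ± 0.18 and -0.03 ± 0.07 in gamma. None of the 33 regions reached a WT mean of 1, that is 2-fold the ChIP over input of the average region, against 1.39% of all regions. The highest WT value, 0.65 at chr18:37387651-37387950 in the beta cluster, rested on 5 input reads in WT and 4 in KO. The alpha region at chr18:37030051-37031700 was at 0.36 in WT and 0.05 in KO on 30 and 36 input reads, and the one at chr18:37582051-37584150, between beta and gamma, at 0.50 and 0.25 on 31 and 37. In KO the region over Pcdhb22 (chr18:37520101-37524450) was at 1.05, against -0.07 in WT, on 14 and 29 input reads. Its ChIP reads per 1000000 reads in regions (rpm) overlapped, at 2.28 to 2.52 in WT and 2.15 to 2.71 in KO. Most of the 33 regions took about the same share of reads in ChIP libraries as in the inputs, which is the level of the average region and not an absence of the mark.

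In the alpha cluster, the summed rpm was 201, 202 and 197 in WT1 to WT3 and 196, 206 and 197 in KO1 to KO3, with inputs at 195 in WT and 188 in KO. In the beta cluster they were 213, 199 and 198 in WT and 202, 215 and 200 in KO, with inputs at 203 and 196. In the gamma cluster they were 25.9, 20.2 and 22.2 in WT and 24.1, 22.6 and 21.9 in KO, with inputs at 21.6 and 23.4. The genotypes overlapped in each cluster, and the highest WT library in beta and gamma was WT1, the one that stands apart.

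**Figure D5:**
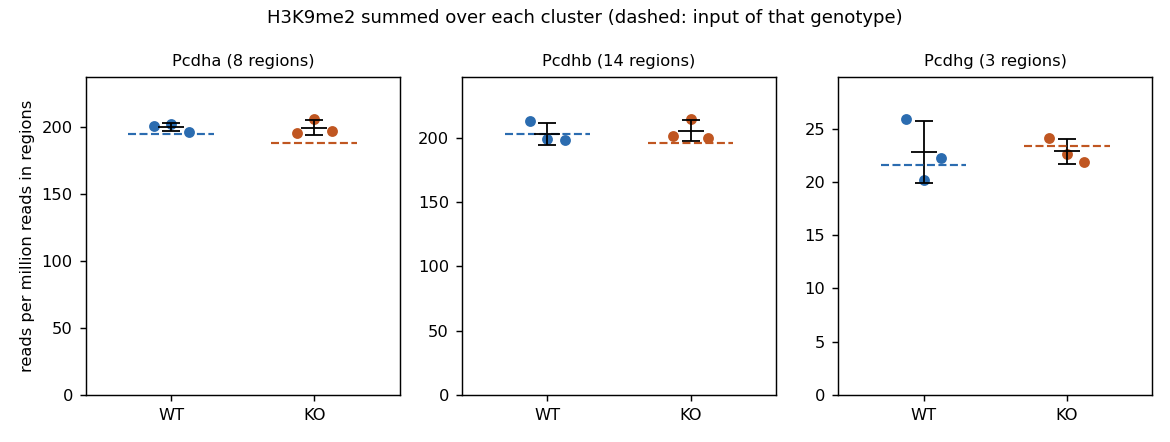
H3K9me2 reads per 1000000 reads in regions, summed over the regions of each cluster, in 3 WT and 3 KO libraries, with mean and SD as bars and the input of the genotype as a dashed line; axes start at 0. WT and KO points overlap in each cluster and lie near the inputs, at 196 to 206 in Pcdha. Inputs are scaled in the same way, so nearness to them marks an average region and not an absence of the mark.

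By the edgeR quasi-likelihood test, 0 of 33 H3K9me2 regions were lower in KO at an adjusted p under 0.05, against 0.00212% of all regions, and 0 were higher, against 0.0%. At an unadjusted p under 0.05, 1 was lower and 0 were higher, against 1.52% and 1.6%, and DESeq2 and limma also called 0. Leaving out WT1 or KO3, the libraries that stand apart, also left 0. All KO values lay below the WT values in 1 region and above them in 1, against 3.61% and 4.5%. The log2 fold changes ran from -0.18 to 0.18, with medians of -0.04 in alpha, 0.00 in beta and -0.02 in gamma. The region with the smallest p covered Pcdha3 and Pcdha4 (chr18:36947701-36959850). It had 17.97, 18.89 and 17.54 rpm in WT and 15.71, 16.75 and 15.89 in KO, without overlap. Its log2 fold change was -0.18 (95% interval -0.35 to -0.02, edgeR adjusted p = 1). At Pcdha4 within it the H3K9me3 value had the opposite sign, 0.32.

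Among other regions with a small p, the one over Pcdhb5 (chr18:37319551-37328850) had 12.63, 12.05 and 12.24 rpm in WT and 13.09, 13.11 and 15.38 in KO, a log2 fold change of 0.17 (-0.02 to 0.36, edgeR adjusted p = 1). The region over Pcdha1 and Pcdha2 (chr18:36916651-36939750) was at 0.13 (-0.01 to 0.28), and the region at chr18:37242001-37256400, between alpha and beta, at 0.14 (-0.02 to 0.30). In the gamma cluster, which held 3 regions, the region over Pcdhga2 to Pcdhga4 (chr18:37670401-37688250) was at -0.04 (-0.22 to 0.15, edgeR unadjusted p = 0.68). The region on Pcdhga1 (chr18:37663351-37665300) was at 0.18 (-0.224 to 0.575, edgeR unadjusted p = 0.372, adjusted p = 1). Without WT1 the value at Pcdhga1 was 0.439, and with any other library left out it ran from 0.05 to 0.251. For regions wider than 5 kb, 95% intervals lay between -0.40 and 0.39 on the log2 scale.

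Genes next to the clusters and other protocadherins served for comparison. Of 15 neighbours on either side or between the clusters, Slc25a2 and Taf7 were overlapped by an H3K9me3 peak, the same peak, and none by an H3K9me2 region. Of 12 non-clustered protocadherins, 7 carried 876 H3K9me3 peaks, with a median WT ChIP over input of -0.19 and a median log2 fold change of 0.08. Pcdh15, Pcdh9 and Pcdh7 held 448, 259 and 118 of them, so these medians are largely theirs. By gene, the median WT ChIP over input ran from -0.36 at Pcdh10 to 0.79 at Pcdh11x. Of the 876 peaks limma called 0, with 6 lower and 41 higher at an unadjusted p under 0.05, and edgeR and DESeq2 called 0. Over all peaks, 6.75% were lower and 4.07% higher at that level. H3K9me2 regions, 133 on 8 of these genes, gave 0 calls with edgeR, DESeq2 and limma, with 1 lower and 3 higher at an unadjusted p under 0.05, against 1.52% and 1.6% of all regions. In other gene arrays known for H3K9me3, 29 of 2665 olfactory receptor peaks (1.09%), 10 of 1250 vomeronasal receptor peaks (0.8%) and 61 of 884 zinc finger (Zfp) peaks (6.9%) were lower in KO, and 4, 0 and 3 higher, against 2.46% lower and 0.252% higher of all peaks. The median WT ChIP over input of these families was -0.12, -0.08 and 0.11, beside 0.06 in the protocadherin window. No test of these differences was run.

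Of 11 genes known to act on clustered protocadherins or on H3K9 methylation, Smchd1 and Dnmt3b carried H3K9me3 peaks. Smchd1, an SMC family protein known to help silence the clustered protocadherins, had 4 peaks and all 4 were lower in KO by limma, against 2.46% of all peaks. The gene list was chosen with earlier results of these data known. The peak of smallest p (chr17:71420701-71424000) had 7.63, 7.46 and 7.64 in WT and 6.38, 6.50 and 6.89 in KO, a log2 fold change of -0.99 (95% interval -1.23 to -0.75, limma adjusted p = 9.37e-08). The other 3 were at -1.52, -0.71 and -0.86, and edgeR called all 4 and DESeq2 2 of them. Dnmt3b, a de novo DNA methyltransferase required for methylation of protocadherin promoters, had 1 peak at -1.44 (adjusted p of 0.00986 with limma, 0.0114 with edgeR and 1 with DESeq2), where KO1 was at 2.25 and KO3, at 5.21, lay within the WT range of 5.18 to 5.73. Ctcf, Rad21, Setdb1, Trim28, Ehmt1, Ehmt2, Wiz, Suv39h1 and Suv39h2 had no peak of either mark. Expression was not measured in these libraries.

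The marks cannot show which cells were present, but marker genes were counted for their overlap. H3K9me3 peaks overlapped 2 of 11 crypt epithelium markers (Vil1 and Lgr5), 1 of 4 immune, 2 of 4 stroma and vessel and 2 of 4 nervous system markers. Against 2.46% lower and 0.252% higher of all peaks, the limma test called 1 lower and 1 higher of 4 epithelial peaks, the latter being Vil1 with its transgene reads, and 0 of 1 immune peak (1 lower at an unadjusted p under 0.05, 0 with edgeR or DESeq2). It called 1 lower of 2 stroma and vessel peaks and 1 lower of 35 nervous system peaks, and of these lower peaks edgeR called each and DESeq2 none. H3K9me2 regions overlapped 1 of 11, 1 of 4, 0 of 4 and 3 of 4. The mix of cells in the isolates and its part in the protocadherin values was not tested.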

How the data were processed

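Per the methods of the study, reads were trimmed (Trim Galore 0.4.4), mapped to GRCm38 (Bowtie2 2.3.2) and, with mapping quality of at least 20 and duplicates removed, counted over MACS peaks, which were called once per mark on all ChIP libraries against both inputs. For H3K9me3 the authors deposited log2 reads per peak, transformed to matching distributions, which removes depth and any global shift. Their inputs were untransformed. For H3K9me2 the authors deposited a signal, the mean reads per peak of a region. Times the number of peaks, it gave whole reads within 0.00114. A short table of counts deposited by the authors was used to check these sums; columns of the authors' own tests were not used. No per-sample column was left without a sample.

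H3K9me3 was tested with limma 3.58.1 (trend) and H3K9me2 with the edgeR 4.0.16 quasi-likelihood test (TMM), genotype only, on all 212313 peaks or 47065 regions, with Benjamini-Hochberg adjustment. DESeq2 1.42.0 was an alternative. H3K9me3 reads were recovered from the rank of each distinct value. Recomputing returned at least 99.9% of values within 0.002, and counts above 330 to 375 reads, in 8 of the 145 peaks, were extrapolated: the 4 broad gamma peaks, those before Pcdha1 and over Pcdhb22, and those starting at 37235551 and 37550551. On simulated data with 200 peaks changed 2-fold, limma recovered 73% with 5 false calls. The changed peaks were drawn only from those above a minimum mean read count. Every log2 fold change of the window, -0.77 to 0.91, was smaller than 2-fold. Recovery of smaller changes, or of changes in peaks with few reads, was not simulated.

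Peaks were placed in a cluster by their midpoint, within the first to last base of its genes. Named were peaks past the threshold, the 3 of highest WT ChIP over input and the widest per cluster, and the 2 H3K9me2 regions of smallest p and of highest ChIP over input. Others were chosen after their values were seen. The window and the gene lists were chosen with earlier results of these data known. Intervals of reads cover counting error only. Sequence of this chromosome is not printed.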

Additional observations from a re-analysis of the deposited data

How the results depend on the processing

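The counts of called H3K9me3 peaks, 1 lower and 1 higher in KO, depended on most settings. Lower peaks numbered 3 with edgeR on recovered reads, and higher peaks 0 with DESeq2. At an adjusted p under 0.01 the lower count was 0. With a minimum absolute log2 fold change of 1, or with peaks of a deposited Pcdha, Pcdhb or Pcdhg name only, both were 0. Leaving out each library gave 0 to 1 lower (0 without WT2, WT3 or KO3; without KO1, as with DESeq2, the peak before Pcdha1 in place of the beta peak) and 0 to 1 higher (0 without WT2 or KO2). With the replicate block the counts were 1 and 1 for H3K9me3 and 0 and 0 for H3K9me2. Same-numbered libraries share a number only (correlations of deviations -0.0147 to 0.00898 for H3K9me3 and 0.0147 to 0.185 for H3K9me2), and over all regions the block called 15 lower and 2 higher H3K9me2 regions against 1 and 0. The H3K9me2 counts in the window were 0 under every alternative run. The filter filterByExpr removed no region.

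Over the libraries left out, the H3K9me3 median ran from -0.006 to 0.037 in alpha, -0.075 to 0.011 in beta and 0.036 to 0.186 in gamma, and the H3K9me2 median from -0.073 to 0.008, -0.025 to 0.031 and -0.094 to 0.097. Summed reads in place of the median gave ChIP over input of 0.635 in WT and 0.571 in KO for gamma H3K9me3 and 0.039 in WT for alpha H3K9me2.

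Among named peaks and regions, none past the threshold changed sign, and some others did. With edgeR and DESeq2 the peak over Pcdhgb8 and Pcdhga12 was at -0.013. Over the libraries left out, the log2 fold change ran from -0.025 to 0.134 at Pcdha6, -0.061 to 0.026 at Pcdha7, -0.218 to 0.415 at chr18:37045501-37046550 and -0.079 to 0.026 at Pcdhb22. For H3K9me2 it ran from -0.272 to 0.039 at chr18:37024051-37024650, -0.265 to 0.248 at chr18:37387651-37387950 (-0.211 with limma and -0.018 with the replicate block), -0.211 to 0.002 at chr18:37421101-37430250, -0.094 to 0.055 at chr18:37670401-37688250 and -0.075 to 0.070 at chr18:37558951-37576500. The cause of these changes was not tested.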
